A study of Bos taurus with 6 samples.

Results

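bta-miR-182 and its cluster partners bta-miR-96 and bta-miR-183, together with bta-miR-1271, make up 4 of the 755 mature miRNAs listed for granulosa cells of bovine ovarian follicles. They were taken by name from the read counts, and each of the 4 is listed under a single precursor. Granulosa cells surround the oocyte inside the follicle and make estradiol. The heifers were of the Simmental breed, had their estrus synchronized with a prostaglandin and a GnRH analogue, and were slaughtered on day 19 of the cycle, so both groups share animals, treatment and day. The larger follicles were classed by the study as preovulatory dominant (3 dominant libraries) and the smaller ones as anovulatory subordinate (3 subordinate libraries), by surface diameter alone. Each library is a pool of RNA. The study obtained far more subordinate than dominant follicles but does not state how many went into each pool. The spread between libraries may therefore not be of the same kind in both groups.

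A miRNA guides silencing proteins to messenger RNAs, mainly by pairing of its seed, a short run of bases near its 5′ end. The miRNAs of this cluster come from neighbouring hairpins that are made as a single transcript in many vertebrates, and they are best known from sensory organs such as the retina and the inner ear. Their seeds are related but not the same. By general knowledge of these miRNAs, miR-96 and miR-1271 have the same seed, and the seed of miR-182 differs from theirs in its last base; no sequences were compared here. FOXO1, a transcription factor that restrains growth and favours cell death, is a known target of the cluster. In the RefSeq gene table of the assembly ARS-UCD2.0, MIR182, MIR96 and MIR183 were consecutive entries with no gene around them, between NRF1 and LOC132345191. MIR1271 lay within the bounds of ARL10 and was followed by NOP16, so it is a separate gene.

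Counting each mature name once, between 190385 and 311842 reads of known miRNAs were found in dominant libraries and between 306932 and 364125 in subordinate ones. Some names, such as bta-miR-129 and bta-miR-129-5p, had the same values in every library. They enter these totals and the miRNAs tested below more than once. Levels are given as CPM, read counts scaled to a common library size with TMM factors, in which 3 reads were worth between 8.86 and 13.9 CPM. A smaller level could not be told from an absence of reads. bta-miR-202, a miRNA of the gonads, was abundant in every library, with between 43510 and 46751 CPM in dominant and between 11576 and 15231 CPM in subordinate libraries. A level in such bulk samples cannot tell fewer cells of a type from less RNA per cell.

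Dominant were compared with subordinate libraries to see which miRNAs differ between follicles near ovulation and follicles that do not ovulate. All 3 cluster members were higher in dominant libraries, by log2 fold changes of 5.98 to 7.06, and bta-miR-1271 was lower, at -2.63. Each of the 4 passed the thresholds of the test, edgeR's quasi-likelihood test with a raw p up to 0.05, a Benjamini-Hochberg adjusted p up to 0.1 and a log2 fold change of 1 or more in size. Of all 353 miRNAs tested, 21.5% were called, 11.9% as higher and 9.63% as lower in dominant libraries. In none of the 4 did the libraries of the groups overlap. Without overlap, 18.4% of all tested miRNAs were higher and 18.4% were lower. By the size of the log2 fold change, bta-miR-183 ranked 1, bta-miR-182 ranked 2 and bta-miR-96 ranked 4 among the increases. bta-miR-1271 ranked 16 among the decreases. The median log2 fold change of all tested miRNAs was -0.20, and -0.01 with total counts in place of TMM factors. Of the calls, 42 were higher and 34 lower, against 47 and 23 with total counts.

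**Figure D1:**
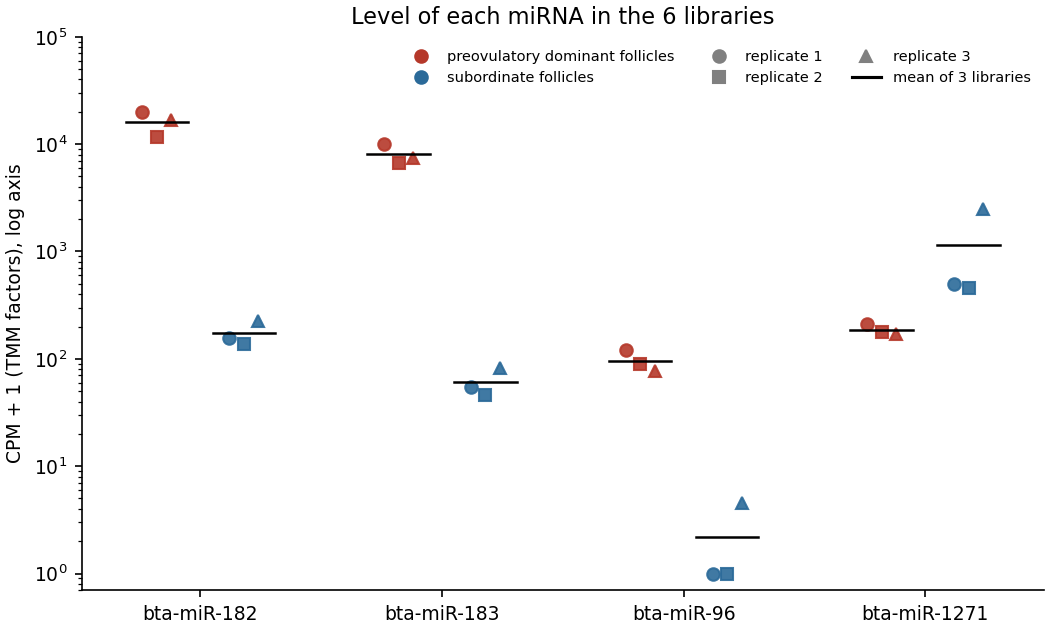
Level of the 4 miRNAs in the 6 libraries, as CPM with TMM factors plus 1 on a log axis. Points are libraries, with colour for the follicle type and shape for the replicate number, and black bars are means of 3 libraries. The 3 cluster members lie far higher in every dominant library, bta-miR-1271 lies higher in every subordinate library, and bta-miR-96 has no read in subordinate replicates 1 and 2.

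bta-miR-182 was the most abundant member. In dominant libraries it had 5624, 2531 and 5299 reads in replicates 1, 2 and 3, and in subordinate libraries it had 53, 42 and 64 reads. The lowest dominant library thus lay far above the highest subordinate library. In CPM these were 19845, 11739.9 and 16874 against 157, 136 and 226, with means of 16153 ± 4100.3 and 173 ± 47.1 (SD, n = 3 each). Its log2 fold change was 6.55 (standard error 0.32, edgeR quasi-likelihood adjusted p = 2.56e-06). Summed over the libraries of a group, the level was 96.9 times higher, with a 95% interval of 82.9 to 114 that covers counting error only. The miRNA took between 1.33 and 2.16% of the reads of a dominant library and ranked 15, 19 and 15 by reads among the 328, 321 and 328 miRNAs with reads there. In subordinate libraries its share was between 0.0115 and 0.0209%, and it ranked 135, 134 and 117.

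bta-miR-183 was second in abundance within the cluster and had the largest log2 fold change of all tested miRNAs. It had 2823, 1429 and 2355 reads in dominant libraries and 18, 14 and 23 reads in subordinate libraries. The corresponding levels were 9961, 6628 and 7499 CPM against 53.2, 45.3 and 81.2 CPM. Replicate 2 was the lowest library of both groups for bta-miR-182 and bta-miR-183 alike. Group means of bta-miR-183 were 8030 ± 1729 and 59.9 ± 18.9 CPM (SD, n = 3 each). On the log2 scale the fitted fold change of bta-miR-183 was 7.06 (standard error 0.32, edgeR quasi-likelihood adjusted p = 2.56e-06). The ratio of the summed levels was 138, with a counting interval of 106 to 182.8.

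bta-miR-96 lies between the other two hairpins but was by far the scarcest of the 3. Its reads numbered 34, 19 and 24 in dominant libraries and 0, 0 and 1 in subordinate libraries. The levels in dominant libraries were 120, 88.1 and 76.4 CPM, with a mean of 94.8 ± 22.5 CPM (SD, n = 3). For the subordinate libraries without a read, 3 reads would be 8.86 and 9.70 CPM. The fitted log2 fold change was 5.98 (standard error 0.74, edgeR quasi-likelihood adjusted p = 0.000577), and its size rests on a single subordinate read. bta-miR-96 met the filter of the test, a read in at least 2 libraries of a group, only through the dominant libraries. Its p-value, call, rank and lack of overlap are therefore given as a description. The ratio of the summed levels was 88.2 and its counting interval ran from 15.4 to 3528. Among the dominant libraries the coefficient of variation of bta-miR-96 was 23.8%, close to the 19.7% that counting alone would give at its mean. For bta-miR-182 the same figures were 25.4 and 1.49%.

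Taken as a whole, the cluster held 8481, 3979 and 7678 reads in dominant libraries and 71, 56 and 88 in subordinate libraries. It took 2.61 ± 0.600% and 0.0218 ± 0.00665% of the reads of a library (SD, n = 3 each). On the CPM scale the sum was 29926, 18456 and 24449 against 210, 181 and 311. On the log2 scale the group means of the summed CPM differed by 6.71.

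**Figure D2:**
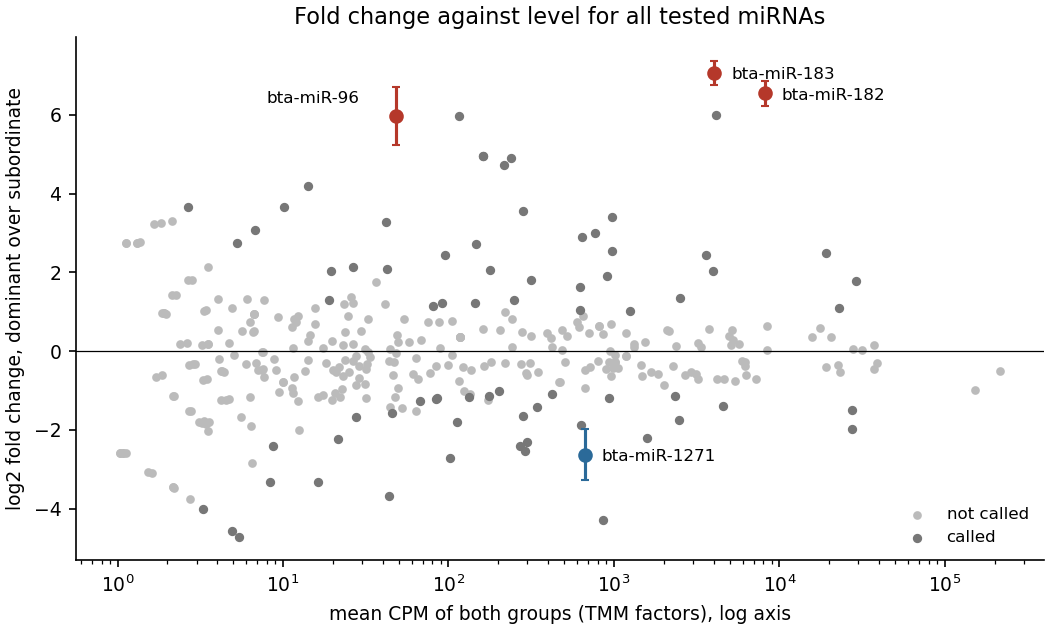
Log2 fold change of dominant over subordinate libraries against the mean CPM of both groups on a log axis, for the 353 tested miRNAs. Dark grey points passed the thresholds, light grey points did not, and the 4 members are in colour with bars for the standard error. bta-miR-183 and bta-miR-182 are the uppermost points, and bta-miR-1271 lies among the lower calls at -2.63.

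Within the cluster bta-miR-182 had the most reads, followed by bta-miR-183, and bta-miR-96 had the fewest in all 6 libraries. bta-miR-182 took 66.3, 63.6 and 69.0% of the cluster's reads in dominant libraries and 74.6, 75.0 and 72.7% in subordinate libraries. This share did not overlap between the groups, with means of 66.3 ± 2.70 and 74.1 ± 1.22% (SD, n = 3 each; exact two-sided permutation test, p = 0.1, adjusted p = 0.12 over 6 such tests). No split of 3 libraries against 3 can give a smaller p than 0.1. The subordinate shares rest on few reads, and their exact (Clopper-Pearson) 95% intervals, which cover counting error only, ran from 61.6 to 85.6% in replicate 2. In the dominant libraries the intervals were narrow, for example from 65.3 to 67.3% in replicate 1. bta-miR-183 took the larger part of the rest, 33.3 ± 2.62 against 25.5 ± 0.582% (SD, n = 3 each; exact permutation test, p = 0.1, adjusted p = 0.12). With so few reads of bta-miR-96, the shares of bta-miR-182 and bta-miR-183 nearly mirror each other. The tests of both shares and of their ratio below thus describe the same difference and are not separate results.

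Per read of bta-miR-183 there were 1.99, 1.77 and 2.25 reads of bta-miR-182 in dominant libraries and 2.94, 3 and 2.78 in subordinate libraries. The lowest subordinate ratio was thus above the highest dominant ratio. After adding 1 read to both counts, the log2 ratio was lower by 0.49 in dominant libraries, where the difference is -0.49 (exact two-sided permutation test, p = 0.1, adjusted p = 0.12). With the reads of each group summed, the ratio of ratios was 0.704, with a counting interval of 0.508 to 0.964. For bta-miR-96 no difference in share could be detected, with 0.401, 0.478 and 0.313% of the cluster's reads against 0, 0 and 1.14% (exact permutation test, p = 1). Its ratio to bta-miR-182 differed between the groups by a factor of 0.910, with a counting interval of 0.156 to 36.6. Adapter ligation favours some miRNA sequences over others, so read shares between miRNAs are not shares of molecules, whereas the comparison of a share between libraries is less affected.

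**Figure D3:**
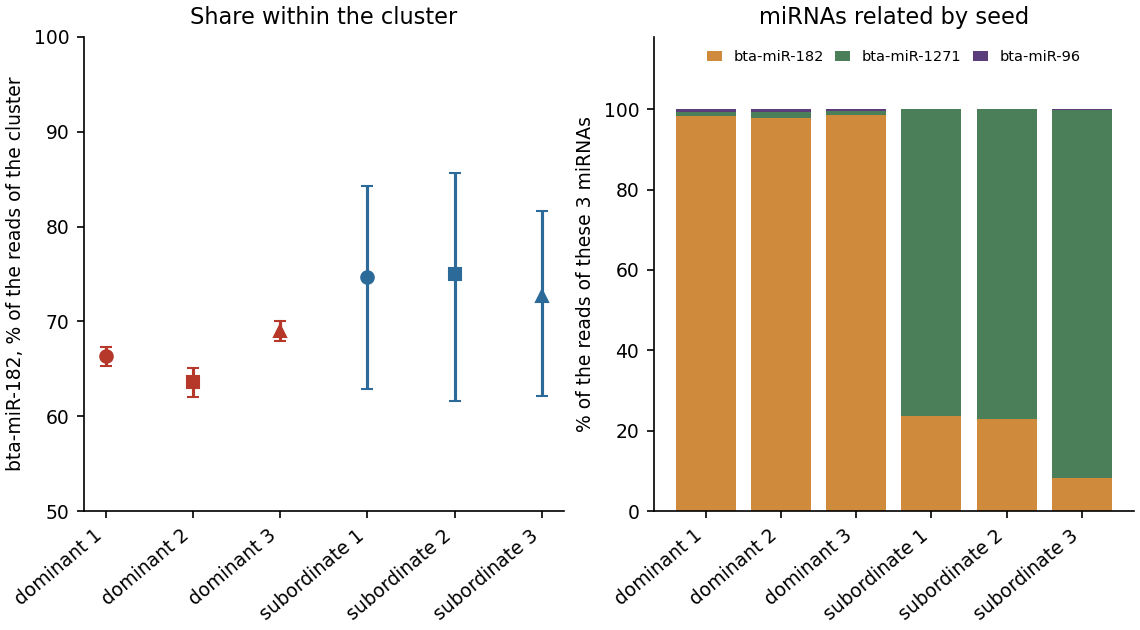
Left, reads of bta-miR-182 as a percentage of the reads of the cluster in each library, with exact 95% binomial intervals and an axis that starts at 50%. Right, reads of bta-miR-182, bta-miR-1271 and bta-miR-96 as percentages of their sum in each library. bta-miR-182 fills at least 97.8% of the right-hand bars in dominant libraries, and bta-miR-1271 at least 76.2% in subordinate libraries.

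bta-miR-1271, which shares the seed of bta-miR-96, changed in the opposite direction. It had 60, 38 and 53 reads in dominant libraries and 170, 141 and 708 reads in subordinate libraries. As CPM, these were 212, 176 and 169 against 502, 456 and 2498, and the lowest subordinate library was above the highest dominant library. The means were 186 ± 22.9 and 1152 ± 1166 CPM (SD, n = 3 each), so the spread among subordinate libraries was as large as their mean. The log2 fold change was -2.63 (standard error 0.65, edgeR quasi-likelihood adjusted p = 0.0221). In summed levels bta-miR-1271 was 5.89 times higher in subordinate libraries, with a counting interval of 4.96 to 7.04.

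The size of this difference rested on subordinate replicate 3, and the call came near its threshold whichever dominant library was left out. Without subordinate replicate 3 the log2 fold change was -1.37 (standard error 0.21, edgeR quasi-likelihood adjusted p = 0.00438). Without dominant replicate 2 it was -2.58 and no longer called (adjusted p = 0.113 from edgeR). Without dominant replicate 1 it was -2.73 and without dominant replicate 3 it was -2.59, both still called (adjusted p = 0.0836 and 0.0660 from edgeR). For bta-miR-96 the fitted log2 fold change was 7.80 without subordinate replicate 3, which holds its only subordinate read. The log2 fold changes of bta-miR-182 and bta-miR-183 stayed between 6.37 and 6.78 and between 6.88 and 7.34, whichever library was left out.

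**Figure D4:**
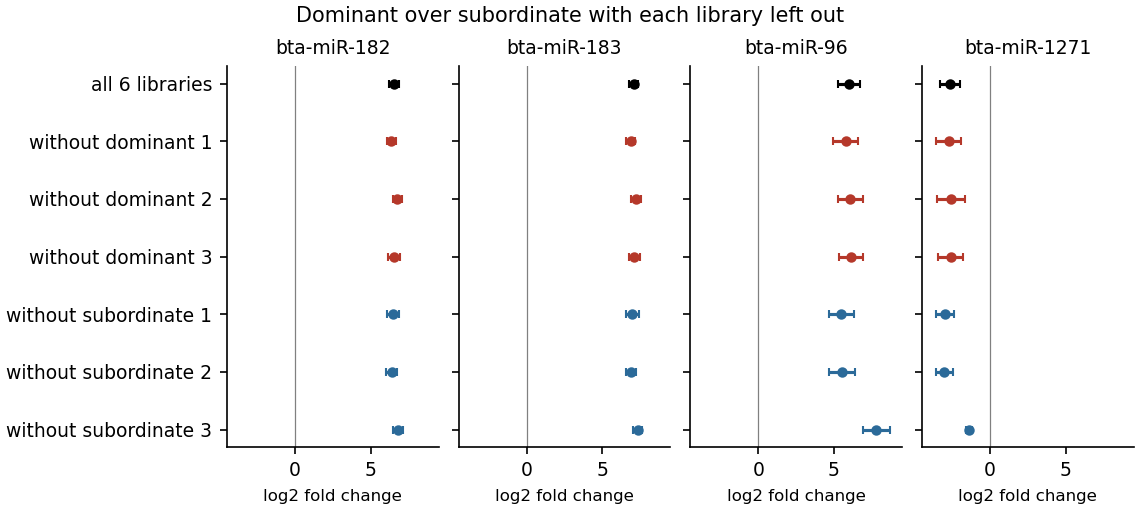
Log2 fold change of dominant over subordinate libraries for each member, with all 6 libraries (black) and with a dominant (red) or a subordinate (blue) library left out. Bars are standard errors, and the panels have the same axis. bta-miR-1271 moves from -2.63 to -1.37 without subordinate replicate 3, and bta-miR-96 from 5.98 to 7.80.

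Subordinate replicate 3 also stood apart in other miRNAs. Of 194 miRNAs that averaged 10 reads or more over the subordinate libraries, 6 had at least 3 times the CPM of both other libraries of the group there. For bta-miR-1271 the factor over the larger of the other libraries was 4.98. bta-miR-100, at 5.40 times, was another of these 6, while bta-miR-183 and bta-miR-182 were 1.53 and 1.44 times higher. The same count was 6 of 190 in dominant replicate 3 and at most 1 in each of the other 4 libraries.

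The reads with the seed of bta-miR-96 and bta-miR-1271 changed their makeup between the follicle types. bta-miR-96 made up 36.2, 33.3 and 31.2% of the sum of both in dominant libraries and 0, 0 and 0.141% in subordinate libraries (exact two-sided permutation test, p = 0.1, adjusted p = 0.12). bta-miR-1271 had more reads than bta-miR-96 in all 6 libraries, with 1.76, 2 and 2.21 reads per read of bta-miR-96 in dominant libraries and 708 in subordinate replicate 3. The log2 ratio of bta-miR-1271 to bta-miR-96, after adding 1 read to both, was 0.96 ± 0.15 against 7.68 ± 0.70 (SD, n = 3 each; exact permutation test, p = 0.1, adjusted p = 0.12). Since bta-miR-96 met the read filter only through the dominant libraries and was at its floor in subordinate ones, both tests are given as a description. As a description added after the values were seen, both miRNAs together held 94, 57 and 77 reads in dominant libraries, or 332, 264 and 245 CPM. In subordinate libraries they held 170, 141 and 709 reads, or 502, 456 and 2502 CPM. The sum of this seed was therefore lower in every dominant library, although bta-miR-96 was higher there.

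When bta-miR-182, whose seed is close to theirs, was added to the sum, the order turned. The 3 miRNAs together had 20177, 12004 and 17119 CPM in dominant libraries and 659, 592 and 2728 CPM in subordinate libraries. bta-miR-182 provided 98.2 ± 0.398% of these reads in dominant libraries and 18.3 ± 8.72% in subordinate libraries (SD, n = 3 each). bta-miR-1271 provided 1.17 ± 0.262% and 81.6 ± 8.64%, respectively (SD, n = 3 each). On the log2 scale the group means of this summed CPM differed by 3.98, and by 4.69 without subordinate replicate 3. For the cluster this difference was 6.71.

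The order of the 4 levels thus differed between the follicle types. In dominant libraries bta-miR-182 was highest, then bta-miR-183, then bta-miR-1271, with bta-miR-96 last. In subordinate libraries bta-miR-1271 came before the cluster members, whose order was the same. In neither group did the CPM ranges of neighbours in this order overlap.

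The miRNAs with a pattern most like that of bta-miR-182 were bta-miR-132, bta-miR-129-3p and bta-miR-212. Likeness was measured as the Euclidean distance of log2 CPM, centred for each miRNA, over the 6 libraries, and 190 miRNAs were compared. The distances were 1.49, 2.37 and 2.55, larger than the 0.65 between bta-miR-182 and bta-miR-183. bta-miR-132, a miRNA induced by luteinizing hormone in granulosa cells, had 2097, 1076 and 3757 reads in dominant libraries and 60, 14 and 45 in subordinate libraries. bta-miR-212, made from the same transcript as bta-miR-132, had 147, 62 and 140 against 1, 2 and 11 reads. For bta-miR-129-3p the reads were 77, 56 and 47 against 2, 1 and 0. In bta-miR-132 the highest library was dominant replicate 3, whereas in bta-miR-182 it was replicate 1. With 2 groups this far apart, any miRNA of like fold change is close, so the distances describe mainly the size of that change.

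For bta-miR-1271 the nearest patterns were bta-miR-100, bta-miR-2285k and bta-miR-99a-5p, at distances of 0.611, 0.999 and 1.34. bta-miR-100 had 171, 115 and 177 reads in dominant libraries and 363, 298 and 1641 in subordinate libraries. bta-miR-99a-5p, of the same family as bta-miR-100, had 826, 480 and 756 against 1414, 1145 and 3385 reads. bta-miR-2285k had 29, 18 and 35 against 132, 89 and 230 reads. In all of these, as in bta-miR-1271, subordinate replicate 3 was the highest library. They were picked by likeness over these same libraries, so the shared highest library follows largely from that choice.

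**Figure D5:**
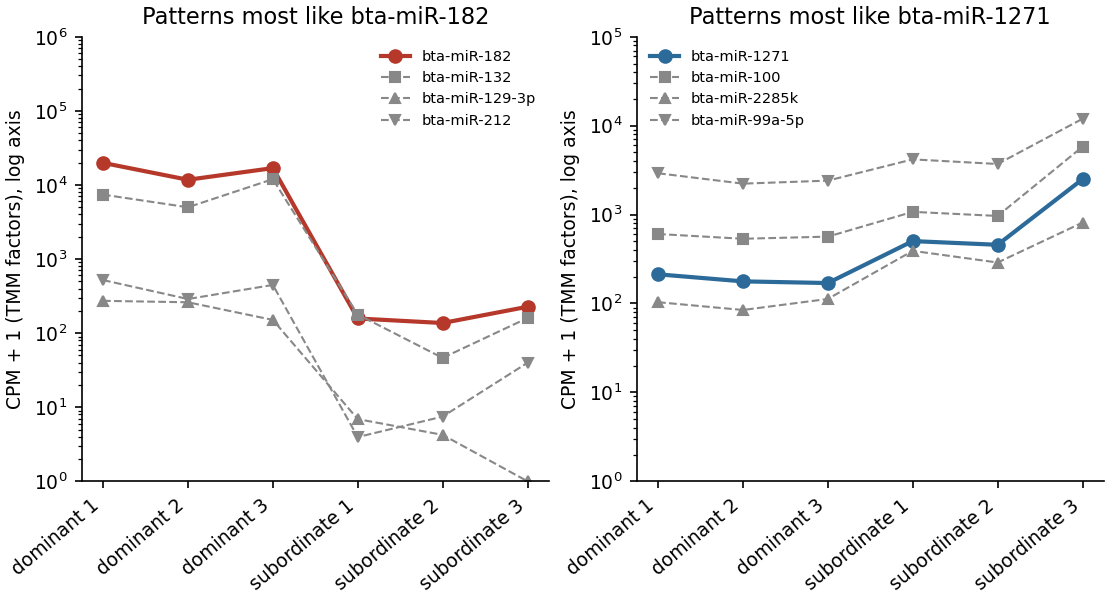
CPM with TMM factors plus 1, on a log axis, of bta-miR-182 (left) and bta-miR-1271 (right) in the 6 libraries, each with the 3 miRNAs whose centred pattern was nearest (grey). Lines only join the points of a miRNA. In the left panel the miRNAs fall between the follicle types, and in the right panel they are highest in subordinate replicate 3.

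Marker miRNAs of other cell types were examined beside these results. Of 6 listed epithelial miRNAs in the files (the miR-200 family with bta-miR-141 and bta-miR-429, and bta-miR-205) none had more than 5 reads in a library, and bta-miR-205 had no read. Their summed level was between 3.18 and 27.8 CPM in dominant and between 0 and 29.5 CPM in subordinate libraries. Of 6 neuroendocrine and neural miRNAs, 4 were tested and 1 was called. This was bta-miR-375, known from endocrine cells, with 7, 6 and 9 reads against 0, 1 and 0 (log2 fold change 4.19, edgeR quasi-likelihood adjusted p = 0.00791). The size of its fold change rests on 1 subordinate read. Like bta-miR-96, it met the read filter only through the dominant libraries, so its call and adjusted p are given as a description. The other tested members were not called, with log2 fold changes of 0.09 for bta-miR-7, -1.25 for bta-miR-9-5p and -2.58 for bta-miR-9-3p. Of these, bta-miR-9-3p had reads in subordinate libraries only. The summed level of the 6 neuroendocrine and neural miRNAs overlapped between the groups, with between 378 and 525 CPM against between 286 and 597 CPM. Most of this sum was bta-miR-7 in every library, so it says little about the others. The neural miRNAs bta-miR-124a and bta-miR-124b had at most 1 read in a library.

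Of 7 blood cell miRNAs, 6 were tested and 2, bta-miR-451 and bta-miR-486 of red blood cells, were called higher in dominant libraries. The other tested members were not called. Their log2 fold changes were 1.33 for bta-miR-144, 0.53 for bta-miR-142-5p, 0.08 for bta-miR-150 and -0.48 for bta-miR-223. Most reads of the list were of bta-miR-451 and bta-miR-486 in every library, so its sum mainly describes these. The summed level of the 7 was 14206, 8901 and 1306 CPM in dominant replicates 1, 2 and 3 and between 1366 and 2029 CPM in subordinate libraries. bta-miR-451 had 642, 372 and 38 reads in dominant libraries and 76, 58 and 28 in subordinate ones. For bta-miR-486 the reads were 3063, 1404 and 291 against 435, 413 and 201. Dominant replicates 1 and 2 were thus high in both, and dominant replicate 3 lay within the range of the subordinate libraries in CPM. The cluster had 24449 CPM in dominant replicate 3. With that library as the only dominant one, a choice made after seeing the data, the log2 fold changes were 6.94 for bta-miR-183, 6.59 for bta-miR-182 and 5.68 for bta-miR-96. bta-miR-1271 was then at -2.81 and no longer called. A single library shows no spread of its own, so these values are given as a description. Both endothelial miRNAs failed the thresholds, with a summed level between 73.2 and 293 CPM against between 354 and 540 CPM. Of 5 miRNAs of theca and other stroma, bta-miR-214 was called lower, and the summed level was between 17603 and 27823 CPM against between 21064 and 35751 CPM. The part of blood, epithelial, endothelial, stromal, neural or endocrine cells in the results was not tested.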

How the data were processed

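Small RNA of granulosa cells was sequenced by the authors (TruSeq small RNA libraries, HiSeq). Reads were trimmed with Cutadapt and Seqtk, mapped with Bowtie to the bovine genome (UMD3.1 per the labels) and counted on miRBase miRNAs with miRDeep2. The deposited values are counts without normalization, in 906 rows per library. No molecular identifiers were used, so intervals cover counting error only. The largest precursor row was used for each mature miRNA, which matters for 73 names but for no member. The members and marker lists were chosen with earlier results of these data known. Named beyond the members are the 3 nearest patterns each for bta-miR-182 and bta-miR-1271 (mean of at least 10 reads, prior count 1). Also named are list members that were called or that define a list, and the other tested members of the blood and neural lists.

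The groups were compared in R 4.3.3 by edgeR 4.0.16 (TMM, quasi-likelihood test, no covariate), and p-values were adjusted by Benjamini-Hochberg over 353 miRNAs that had a read in at least 2 libraries of a group. As standard error, the size of the fold change (log2) over the root of F is given. P-values measure the spread between pools that share animals. Shares and ratios were compared by exact permutation. In simulated data, 200 of 353 miRNAs were changed by 2 on the log2 scale, and 334 of the 353 passed the read filter. Recovery was 96.7% for changed miRNAs that passed with means of 10 reads or more and 76.0% for all 200, with 3.18% false calls. A larger part of the miRNAs was changed there than was called in the data, so this rate of false calls does not carry over. Same-numbered libraries of both groups deviated together (Pearson's r across 194 miRNAs of 0.14, 0.38 and 0.41). Of the unlike-numbered pairs, dominant replicate 2 with subordinate replicate 1 had 0.19. Dominant replicate 1 with subordinate replicate 2 had 0.12, and the remaining pairs were negative. A pairing by number is thus not established, above all for replicate 1, and the replicate number was added as a block in another fit only. DESeq2 1.42.0, other normalizations, filters, pseudocounts and sets of libraries were tried as well. Coordinates are not used here, since the gene table is of another assembly. Mature sequences are not used here either, so seeds were not compared, and other miRNAs sharing the seed of a member, which the naming rule allows, were not sought.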

Additional observations from a re-analysis of the deposited data

How the results depend on the processing

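Of 156 values recomputed under other settings, 147 were classed as unchanged. For fold changes this meant the same direction and side of the threshold. Shares, ratios and sums had to keep their sign and move by less than the spread between replicates. Numbers of miRNAs called only had to stay within a set factor of the main number. In the fits with all libraries the log2 fold changes ran from 7.04 to 7.27 for bta-miR-183, from 6.52 to 6.74 for bta-miR-182, from 5.96 to 6.35 for bta-miR-96 and from -2.69 to -2.17 for bta-miR-1271, and each stayed called. The value of -2.17 came from the fit with the replicate block, which changed no call of the 4. With the block, bta-miR-183 was at 7.07, bta-miR-182 at 6.54 and bta-miR-96 at 5.98. With each library left out in turn, bta-miR-1271 ran from -3.01 to -1.37 and bta-miR-96 from 5.48 to 7.80. Over all alternatives the adjusted p of bta-miR-1271 ran from 0.000171 to 0.290. With each library left out in turn, the number of miRNAs called lower ran from 22 (without dominant replicate 1) to 38. Without dominant replicates 1 and 2, chosen after seeing the data, 25 miRNAs were called higher and 14 lower, and bta-miR-1271 was at -2.81. That fit assumes that the lone dominant library varies like the subordinate ones. With no fold change threshold 50 miRNAs were called lower. With 0.5 reads added in place of 1, the log2 ratio of bta-miR-1271 to bta-miR-96 differed by -7.51 in place of -6.72, because of subordinate libraries without a read of bta-miR-96. The difference in the share of bta-miR-96 within the cluster, 0.018 percentage points, ran from -0.171 to 0.397 without 1 library and changed sign without dominant replicate 2 (-0.022) or either subordinate library without a read. Summing precursor rows could move no share, ratio or sum of the members, since each has a single precursor row. The replicate block could not move the log2 ratios, since each group has 1 library of each number. These values are among the 147, so that number overstates how far the results were tried. Depth limits bta-miR-96 in subordinate follicles and the subordinate shares within the cluster.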
